A study of Mus musculus with 9 samples.

Results

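Cytosine methylation is written, kept and removed by small families of genes, and 10 of them are described here in mouse neural stem cells (NSCs) that were leaving the stem cell state: Gadd45a, Gadd45b, Gadd45g, Tet1, Tet2, Tet3, Tdg, Dnmt1, Dnmt3a and Dnmt3b. They were chosen by membership of the GADD45, TET and DNMT families, with the glycosylase gene Tdg added, and found by matching their symbols to the Ensembl identifiers of the count table. The set was drawn up when the rise of Gadd45b at 1 h was already known, so the values of that gene are given as a description with no test, also at 6 h, since those comparisons share the libraries behind the known rise. They are 10 of the 48526 genes in the table and 10 of the 18858 genes that passed the expression filter, so no member was lost to low counts. Cells were collected undifferentiated (0 h) or 1 h or 6 h into differentiation, with 3 replicates per time point and thus 9 libraries. All groups were NSCs of adult wild-type C57BL/6 mice (C57BL/6J in the study's methods) from the subependymal zone (SEZ), the germinal layer that lines the lateral ventricles, expanded as neurospheres. Differentiation took place on Matrigel, an adhesive matrix, without EGF and with FGF kept. For cells fixed at early times the methods describe attachment in medium with EGF before its removal, and whether the cells of the RNA libraries, those at 0 h included, were plated beforehand is not given in the sources used here. The sources do not say whether the replicates came from separate animals or cultures, so p-values measure the spread between these libraries, which may be technical.

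DNA methyltransferases place methyl groups on cytosines in CpG dinucleotides. Dnmt1 is the maintenance enzyme that copies the mark to the new strand behind the replication fork, and Dnmt3a and Dnmt3b methylate DNA de novo. TET proteins are 2-oxoglutarate-dependent dioxygenases that oxidise 5-methylcytosine in steps, and the thymine DNA glycosylase encoded by Tdg excises the most oxidised forms so that base excision repair can put back an unmodified cytosine. GADD45 proteins are small, inducible stress response proteins without an enzymatic activity of their own, which bind the kinase MEKK4 (Map3k4) and cell cycle regulators and have been linked to local DNA demethylation. In the adult brain Gadd45b is known as an activity-induced gene, and Dnmt3a and the TET genes are known for roles in adult neurogenesis. The libraries measured only RNA, and neither methylation nor protein was measured.

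Total counts per library were between 65871454 and 105592597, and the members had between 113 counts (Gadd45b at 0 h, replicate 2) and 38551 counts (Dnmt1 at 6 h, replicate 3) in a library. Expression is given as CPM, the counts relative to library sizes scaled with TMM, and comparisons between genes use CPM per kb of annotated exons. Genes were tested in edgeR by quasi-likelihood, first with time point alone and then with the replicate number added as a block, because same-numbered libraries deviated together. A call is a Benjamini-Hochberg adjusted p under 0.05 over all tested genes. Neural stem and progenitor markers summed to between 6680 and 9580 CPM in every library, whereas the microglial genes C1qa and C1qb had no counts. The 7 oligodendroglial markers summed to between 613 and 785 CPM before induction, between 618 and 712 CPM after 1 h and between 878 and 1050 CPM after 6 h. For the 5 mural and fibroblast markers the sums were 52.6 to 96.2, 64.1 to 110 and 33.3 to 46.7 CPM in the same order. Sums of the neuroblast, mature neuron, astrocyte, ependymal and endothelial lists overlapped between time points, and the microglial sum was at most 0.569 CPM. Overlap does not show that these sums stayed level, since they were not compared within pairs. From 0 h to 6 h the ranges were 34.9 to 76.8 and 66.5 to 134 CPM for mature neuron, and 4.15 to 19.0 and 2.68 to 9.95 CPM for endothelial markers. They were 199 to 393 and 203 to 396 CPM for astrocyte markers. At least the oligodendroglial and the mural and fibroblast sets therefore moved with the 6 h results given below. The part of any cell type in those results was not tested. In such bulk samples, fewer cells of a type and less RNA per cell cannot be told apart.

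The 250 bases upstream of the RefSeq transcription start sites of the 3 GADD45 genes are shown before the values. They follow the build GRCm38.p6 and are printed 5′ to 3′ on the strand of the gene. Capitals mark CCAAT boxes and, in Gadd45b, the match to the EGR motif. The windows lie at chr6:67037408-67037657 on the minus strand for Gadd45a, at chr10:80929841-80930090 on the plus strand for Gadd45b, and at chr13:51846425-51846674 on the plus strand for Gadd45g. The gene positions given below come from GENCODE, where Gadd45a starts at 67037457 and Gadd45b at 80930073. The windows of these genes therefore run into the GENCODE genes, and positions counted from the GENCODE starts would differ.
Gadd45a: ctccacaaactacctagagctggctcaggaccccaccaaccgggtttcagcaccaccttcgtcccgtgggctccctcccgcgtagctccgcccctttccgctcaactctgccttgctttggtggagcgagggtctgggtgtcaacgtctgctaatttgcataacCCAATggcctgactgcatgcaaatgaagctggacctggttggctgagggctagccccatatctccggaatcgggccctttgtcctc
Gadd45b: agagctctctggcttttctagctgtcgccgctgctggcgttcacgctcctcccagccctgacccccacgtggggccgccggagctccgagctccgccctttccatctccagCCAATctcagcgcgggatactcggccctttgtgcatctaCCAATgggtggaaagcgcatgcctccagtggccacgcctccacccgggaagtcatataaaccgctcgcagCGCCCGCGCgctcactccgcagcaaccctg
Gadd45g: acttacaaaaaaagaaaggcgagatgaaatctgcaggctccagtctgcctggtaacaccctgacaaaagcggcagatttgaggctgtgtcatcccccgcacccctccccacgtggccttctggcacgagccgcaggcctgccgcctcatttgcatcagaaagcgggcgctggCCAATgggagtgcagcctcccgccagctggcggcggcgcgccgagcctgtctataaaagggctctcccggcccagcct

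Both strands of each window were searched for 6 motifs, and no matches overlapped in these 3 windows. The Gadd45b window held CCAAT at -139 to -135 and again at -100 to -96, counted back from the RefSeq start site. It also held a match to the EGR motif GCGNGGGCG on its minus strand, printed as CGCCCGCGC at -30 to -22. The Gadd45a window held 1 CCAAT at -86 to -82 and the Gadd45g window 1 CCAAT at -78 to -74. Among all 32851 promoter windows of the same length, 33.8% held CCAAT and 4.70% held the EGR motif. The other motifs were not among the letters of the 3 windows: the CRE core TGACG (17.8% of all windows), the AP-1 motif TGANTCA (6.75%), the NF-kB motif (7.25%) and the CArG box (1.47%). Over all 10 members, which had 14 windows in RefSeq, the EGR motif was also found in windows of Tet1, Dnmt3a and Dnmt3b. This motif is rich in G and C, and the windows that held it had 62.8% to 80.8% of these bases, against a median of 52.4% over all windows. CCAAT was also found in windows of Tet3, Dnmt1 and Tdg, the NF-kB motif in those of Dnmt3b and Tdg, and the CRE core in that of Tdg. The ratio of observed to expected CpG was between 0.126 and 1.19 in these windows, and it was above the median of all windows (0.373) in 13 of 14, the exception being a window of Dnmt1. These matches describe the letters and say nothing about binding.

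Before induction the members spanned a wide range of levels per length. Dnmt1 was highest at 0 h (55.3 ± 7.89 CPM per kb, mean ± SD, n = 3), followed by Gadd45g (41.7 ± 2.50) and Tdg (29.7 ± 1.64). Tet3 (8.68 ± 1.13) and Dnmt3a (8.27 ± 0.352) came next and overlapped in their replicates, as did Tet2 (2.93 ± 0.175) and Tet1 (2.85 ± 0.414). Gadd45a followed with 2.21 ± 0.072 CPM per kb, and Gadd45b (1.09 ± 0.144) and Dnmt3b (1.04 ± 0.106) were lowest and overlapped. At 1 h Gadd45b (5.80 ± 0.295 CPM per kb) stood above Tet2, Tet1, Gadd45a and Dnmt3b with no overlap with the neighbour on either side. At 6 h Gadd45g (50.9 ± 4.28 CPM per kb) was first in the order, although its replicates overlapped with those of Dnmt1 (43.8 ± 9.05). The order of neighbours depends on the length used, and with the longest transcript in place of the exon union Tet3 fell behind Dnmt3a at 0 h, Gadd45g behind Tdg at 1 h Tet1 behind Gadd45a at 0 h and 1 h, and both Gadd45b and Tet1 behind Tet2 at 6 h.

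**Figure D1:**
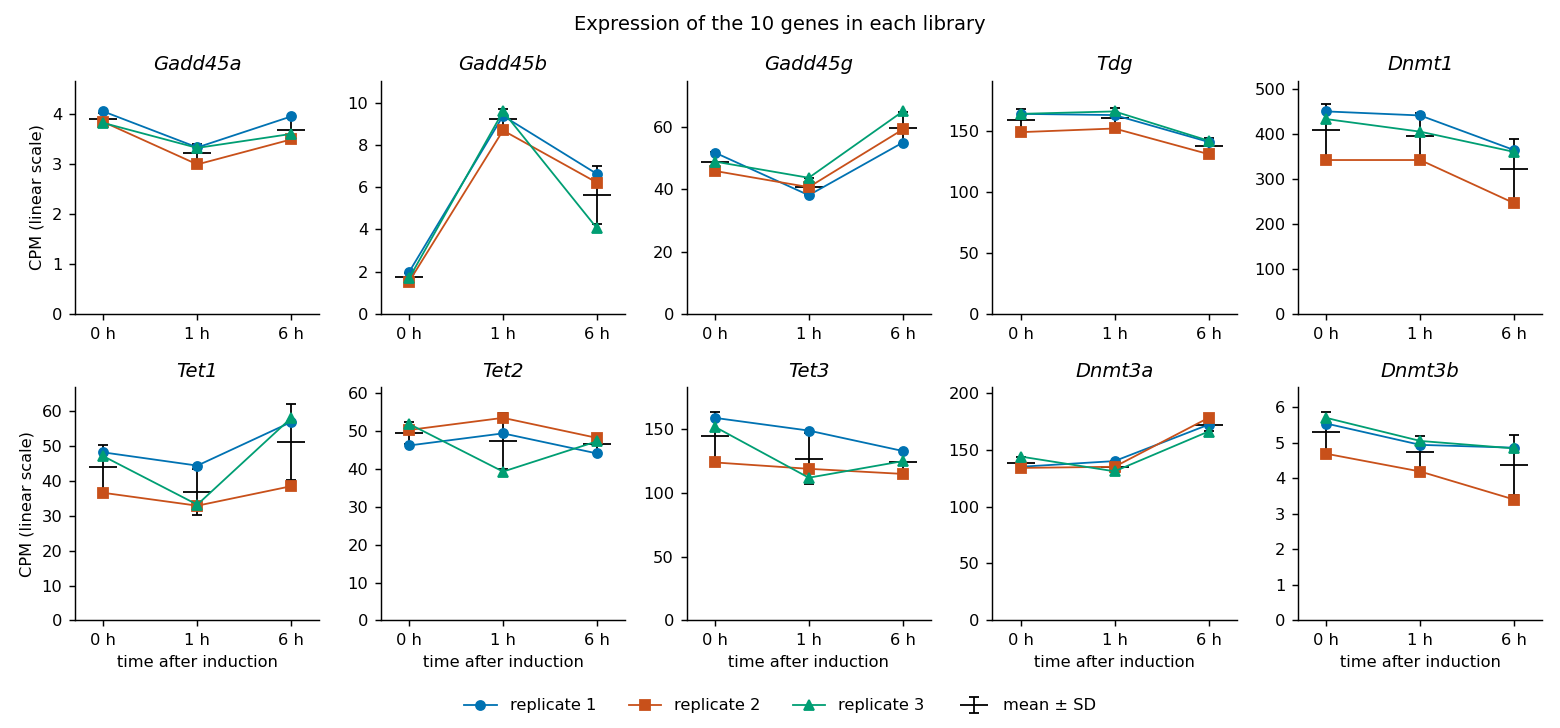
Expression of the 10 genes in CPM on a linear scale that starts at 0 (y axis) at 0, 1 and 6 h after induction (x axis). Symbols and lines are replicates 1, 2 and 3, and black marks are the mean ± SD of 3 libraries. The 3 libraries of Gadd45b at 1 h lie at 9.37, 8.68 and 9.58 CPM, above all others of that gene.

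Gadd45b (ENSMUSG00000015312, chr10:80930073-80932204, plus strand, GRCm38) was the member with the steepest time course. It had 1.98, 1.53 and 1.68 CPM in replicates 1, 2 and 3 at 0 h, 9.37, 8.68 and 9.58 CPM at 1 h, and 6.62, 6.21 and 4.05 CPM at 6 h. The groups did not overlap at any time point, and at 6 h replicate 3 was the lowest library. The fold between 1 h and 0 h was 5.37 (log2 fold change 2.42, SE 0.15, with the replicate block), with log2 ratios of 2.23, 2.49 and 2.50 in the 3 pairs. At 6 h against 0 h the log2 fold change was 1.69 (SE 0.15, with the block), with log2 ratios of 1.73, 2.01 and 1.26. At 6 h against 1 h it was -0.73 (SE 0.13, with the block). The log2 ratios of these pairs were -0.50, -0.48 and -1.24, so the difference was larger in replicate 3 than in the others.

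Gadd45g (ENSMUSG00000021453, chr13:51846678-51848468, plus strand), a GADD45 gene known for its expression in neural progenitors, was by far the most abundant of the family and took another course. Its values were 51.8, 45.9 and 48.9 CPM at 0 h, 38.1, 40.7 and 43.7 CPM at 1 h, and 55.0, 59.2 and 65.0 CPM at 6 h. All libraries at 1 h lay below those at 0 h, and all libraries at 6 h lay above both. The rise from 1 h to 6 h was called with time point alone (log2 fold change 0.55, SE 0.09, edgeR adjusted p = 0.0257) and with the block (SE 0.06, adjusted p = 3.99e-05). Its pairs had log2 ratios of 0.53, 0.54 and 0.57. Without the block this call stood only when 0 h replicate 2 was left out (adjusted p = 0.0436) and reached 0.115 without other libraries, whereas with the block it stood without any library. The rise from 0 h to 6 h was called only with the block (log2 fold change 0.29, SE 0.06, edgeR adjusted p = 0.00383, against 0.134 without it), with log2 ratios of 0.09, 0.37 and 0.41. The decrease at 1 h (log2 fold change -0.26, SE 0.07) reached an adjusted p of 0.0460 with the block in edgeR and 1.0 without it. With 1 library left out, that call at 1 h stood only without 6 h replicate 3 (adjusted p = 0.0306) and otherwise reached up to 0.262, and it is therefore close to the threshold.

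Gadd45a (ENSMUSG00000036390, chr6:67035096-67037457, minus strand), the family member best known as a p53 target, was low throughout. It had 4.05, 3.84 and 3.82 CPM at 0 h, 3.33, 2.99 and 3.32 CPM at 1 h, and 3.95, 3.49 and 3.60 CPM at 6 h. The 3 libraries at 1 h were below all others, but no comparison was called. With the block the log2 fold change at 1 h against 0 h was -0.28 (SE 0.10, edgeR adjusted p = 0.151), and at 6 h against 1 h it was 0.19 (SE 0.10, adjusted p = 0.143). Gadd45a shares 337 exonic bases with E230016M11Rik on the opposite strand, which had 1567 counts against 2563 of Gadd45a over the 9 libraries. The libraries were stranded, but the strand setting of the counting is not given in the sources used here, so the counts of this pair are uncertain.

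The make-up of the GADD45 family shifted with these values. Gadd45b took 2.61%, 2.27% and 2.35% of the family's CPM per kb at 0 h, 14.6%, 13.1% and 13.3% at 1 h, and 7.82%, 6.94% and 4.25% at 6 h. Gadd45g had 92.7 ± 0.138% at 0 h, 82.0 ± 1.18% at 1 h and 90.0 ± 2.21% at 6 h (SD, n = 3). Summed over the family, the level was 45.0 ± 2.71 CPM per kb at 0 h and 42.5 ± 2.50 at 1 h, with overlapping replicates, and 56.6 ± 3.36 at 6 h, above both. The sum did not follow Gadd45b, which was at most 14.6% of it in a library. Since the shares of a family add up to 100%, they do not move independently of each other.

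**Figure D2:**
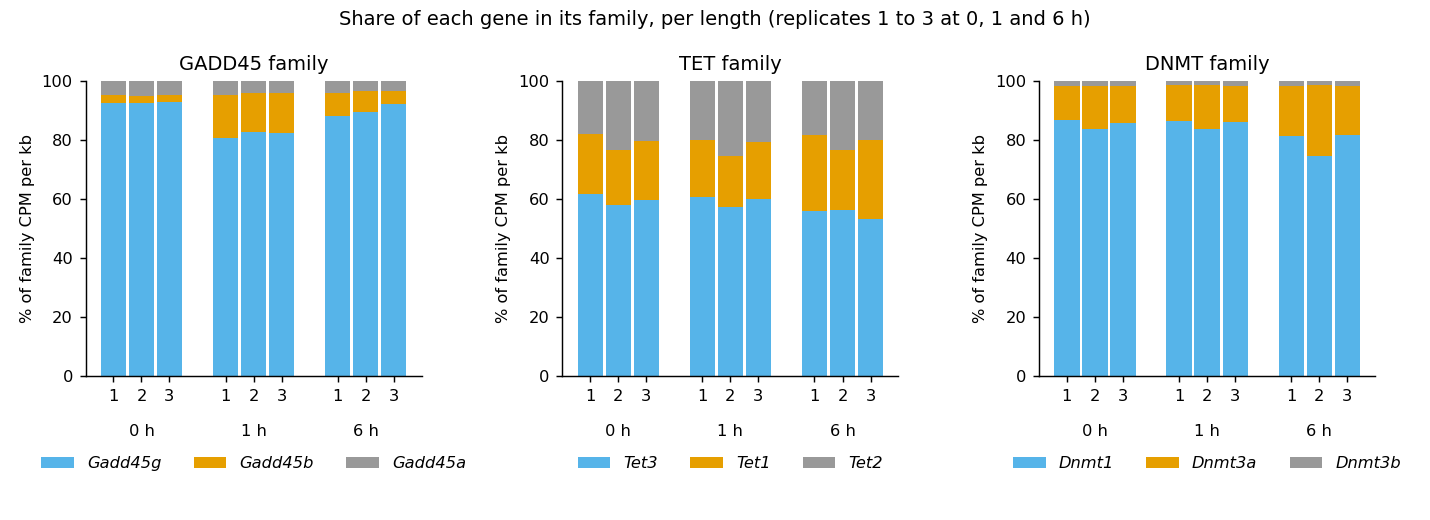
Share of each gene in the summed CPM per kb of its family (y axis, % from 0 to 100) in each of the 9 libraries (x axis, replicates 1 to 3 at 0, 1 and 6 h), for the GADD45, TET and DNMT families. Gadd45b widens from 2.41% to 13.7% on average at 1 h, and Dnmt3a widens from 12.9% to 19.2% at 6 h.

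The TET genes moved less, and most of their differences were within the spread of the replicates. Tet1 (ENSMUSG00000047146, chr10:62804570-62908996, minus strand), which encodes a TET protein with its own CXXC DNA-binding domain, had 48.2, 36.6 and 47.1 CPM at 0 h, 44.4, 32.9 and 33.2 CPM at 1 h, and 56.9, 38.5 and 58.1 CPM at 6 h. Replicate 2 was the lowest library at each time point, and the groups overlapped. Within pairs Tet1 was higher at 6 h than at 1 h, with log2 ratios of 0.36, 0.23 and 0.81, and this was called with the block (log2 fold change 0.46, SE 0.09, edgeR adjusted p = 0.00119) and not without it (adjusted p = 0.248). Against 0 h the log2 fold change of 0.21 at 6 h (SE 0.09) was no call (edgeR adjusted p = 0.0772 with the block). It became one without 1 h replicate 3 (adjusted p = 0.00444) or 6 h replicate 2 (adjusted p = 0.0321).

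Tet3 (ENSMUSG00000034832, chr6:83362373-83459084, minus strand), the most abundant TET gene in these cells, had 159, 124 and 152 CPM at 0 h, 149, 119 and 112 CPM at 1 h, and 133, 115 and 125 CPM at 6 h. The groups overlapped, with each library at 6 h below its own pair at 0 h. Tet3 fell by 0.21 on the log2 scale at 6 h against 0 h with the block (SE 0.07, edgeR adjusted p = 0.0275; 0.463 without it), with log2 ratios of -0.25, -0.11 and -0.28. This call was lost without 0 h replicate 1 (adjusted p = 0.0589), 0 h replicate 3 (0.209), 6 h replicate 1 (0.152) or 6 h replicate 2 (0.0807). Tet2 (ENSMUSG00000040943, chr3:133463679-133545139, minus strand), a gene known for its loss in myeloid blood disorders, had 46.2, 50.3 and 51.9 CPM at 0 h, 49.4, 53.5 and 39.3 CPM at 1 h, and 44.1, 48.2 and 47.3 CPM at 6 h. It overlapped between all groups and was called in no comparison, with log2 fold changes of -0.07, -0.09 and -0.02 for 1 h against 0 h, 6 h against 0 h and 6 h against 1 h with the block (edgeR adjusted p = 0.726, 0.458 and 0.874).

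The library of 1 h replicate 3 stood apart for the TET genes, though not for them alone. In its pair, Tet1, Tet2 and Tet3 had log2 ratios to 0 h of -0.51, -0.40 and -0.44, against -0.12, 0.10 and -0.09 in replicate 1 and -0.16, 0.09 and -0.05 in replicate 2. Dnmt1 and Dnmt3a also had their lowest ratios in this pair (-0.10 and -0.14). Gadd45a, Gadd45b and Gadd45g had their highest there (-0.20, 2.50 and -0.16), and Tdg and Dnmt3b differed little between pairs. When 1 h replicate 3 was left out of the fit with the block, Tet2 and Tet3 were called at 6 h against 1 h (edgeR adjusted p = 0.0109 and 0.0379, log2 fold changes -0.17 and -0.13). Tet3 contributed 59.9 ± 1.95% of the TET family's CPM per kb at 0 h, 59.4 ± 1.73% at 1 h and 55.2 ± 1.55% at 6 h (SD, n = 3). Tet1 contributed 20.3%, 18.6% and 20.0% in the 3 replicates at 0 h and 25.8%, 20.4% and 26.7% at 6 h, so its share was higher at 6 h in each pair.

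Tdg (ENSMUSG00000034674, chr10:82629828-82650799, plus strand) had 164, 149 and 164 CPM at 0 h, 163, 152 and 166 CPM at 1 h, and 141, 131 and 142 CPM at 6 h. All libraries at 6 h were below those at 0 h and 1 h, which overlapped with each other. With the block Tdg was lower at 6 h than at 0 h (log2 fold change -0.21, SE 0.04, edgeR adjusted p = 0.00239) and than at 1 h (-0.22, SE 0.04, adjusted p = 0.00178). Neither was a call without the block (adjusted p = 0.172 and 0.159). The pairs were nearly equal, with log2 ratios of -0.22, -0.19 and -0.21 against 0 h, and both calls stood with the block without any of the 9 libraries. Tdg has an annotated pseudogene, Tdg-ps, with 703 counts against 108176 of Tdg over the 9 libraries, and how reads common to both were assigned is uncertain.

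The methyltransferase genes went in different directions at 6 h. Dnmt1 (ENSMUSG00000004099, chr9:20907209-20959888, minus strand) had 450, 342 and 433 CPM at 0 h, 441, 342 and 405 CPM at 1 h, and 364, 246 and 360 CPM at 6 h. Replicate 2 was the lowest library at each time point, so the groups overlapped although every pair was lower at 6 h. With the block Dnmt1 fell by 0.35 on the log2 scale at 6 h against 0 h (SE 0.06, edgeR adjusted p = 0.000446) and by 0.31 against 1 h (SE 0.06, adjusted p = 0.00113). Without the block the adjusted p-values were 0.375 and 0.447. Both calls stood with the block without any library, and the log2 ratios to 0 h were -0.31, -0.47 and -0.27.

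Dnmt3a (ENSMUSG00000020661, chr12:3806007-3914443, plus strand), the main de novo enzyme of the postnatal brain, had 135, 134 and 144 CPM at 0 h, 140, 135 and 131 CPM at 1 h, and 172, 178 and 166 CPM at 6 h. The 3 libraries at 6 h were above all others, and those at 0 h and 1 h overlapped. Dnmt3a rose at 6 h against 0 h both with time point alone (log2 fold change 0.32, SE 0.06, edgeR adjusted p = 0.0445) and with the block (SE 0.05, adjusted p = 0.000465). Against 1 h the log2 fold change was 0.34 (SE 0.06, edgeR adjusted p = 0.0394 without and 0.000281 with the block). Without the block the call against 0 h stood only without 1 h replicate 3 (adjusted p = 0.0404) and reached 0.181 without other libraries. The call against 1 h was lost whichever library was left out (0.0672 to 0.147). With the block both stood without any library.

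Dnmt3b (ENSMUSG00000027478, chr2:153649450-153687730, plus strand), the de novo enzyme typical of the early embryo, was low, with 5.54, 4.69 and 5.70 CPM at 0 h, 4.94, 4.19 and 5.05 CPM at 1 h, and 4.86, 3.40 and 4.84 CPM at 6 h. The groups overlapped, and 6 h replicate 2 was the lowest library. It fell by 0.29 on the log2 scale at 6 h against 0 h with the block (SE 0.09, edgeR adjusted p = 0.0277; 0.481 without it), with log2 ratios of -0.19, -0.46 and -0.23. That call was lost without 0 h replicate 1 (adjusted p = 0.0660), 0 h replicate 2 (0.142), 0 h replicate 3 (0.0783) or 6 h replicate 2 (0.158). Dnmt3c, an annotated copy of Dnmt3b, had 166 counts against 3394 of Dnmt3b over the 9 libraries. Within the DNMT family, Dnmt1 had 86.9%, 83.8% and 85.7% of the CPM per kb at 0 h and 81.3%, 74.6% and 81.7% at 6 h, without overlap. Dnmt3a had 11.5%, 14.6% and 12.7% at 0 h and 17.1%, 23.9% and 16.7% at 6 h, also without overlap.

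Counted over the set, the 3 comparisons looked different, and they share libraries with each other. At 1 h against 0 h the fit with time point alone called 1 of the 10 members, Gadd45b, where it called 0.0424% of all genes, and nothing is read from that count because this rise was known. The fit with the block also called Gadd45g, which was lower, so that 1 of the 9 members besides Gadd45b was called, where 3.51% of all genes were (1.36% higher and 2.14% lower). Tet1, Tet2, Tet3, Tdg, Dnmt1, Dnmt3a, Dnmt3b and Gadd45a were not called at 1 h in either fit. Leaving out Gadd45b, their log2 fold changes and that of Gadd45g lay between -0.28 and 0.01. The groups were apart at 1 h for Gadd45a, Gadd45b and Gadd45g, the 3 GADD45 genes, of which Gadd45b was known to rise, in a background of 8.22% of all genes.

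At 6 h against 0 h the fit with time point alone called Gadd45b and Dnmt3a, both higher, where it called 2.42% of all genes. With the block 7 members were called, in a background of 34.9% of all genes. Gadd45b, Gadd45g and Dnmt3a were higher (17.4% of all genes were), and Tet3, Tdg, Dnmt1 and Dnmt3b were lower (17.5%). Gadd45a, Tet1 and Tet2 were not called. These counts and those against 1 h include Gadd45b, from whose calls nothing is read. The groups were apart for Gadd45b, Gadd45g, Tdg and Dnmt3a, 4 of 10 members against 24.9% of all genes. In each of the 10 members the 3 pairs had the same sign, which was also so in 63.2% of all genes, and the median log2 fold change of the set was -0.09, with about 0 for all genes.

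At 6 h against 1 h the fit with time point alone called Gadd45g and Dnmt3a as higher, in a background of 2.14%. With the block 6 members were called, in a background of 35.6%: Gadd45g, Tet1 and Dnmt3a were higher (18.0% of all genes were), and Gadd45b, Tdg and Dnmt1 were lower (17.5%). The groups were apart for 5 of 10 members, namely the 3 GADD45 genes, Tdg and Dnmt3a, against 22.2% of all genes. Apart from Gadd45b the sizes were moderate, with log2 fold changes between -0.31 and 0.55, and the median absolute log2 fold change of all genes in this comparison was 0.207.

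**Figure D3:**
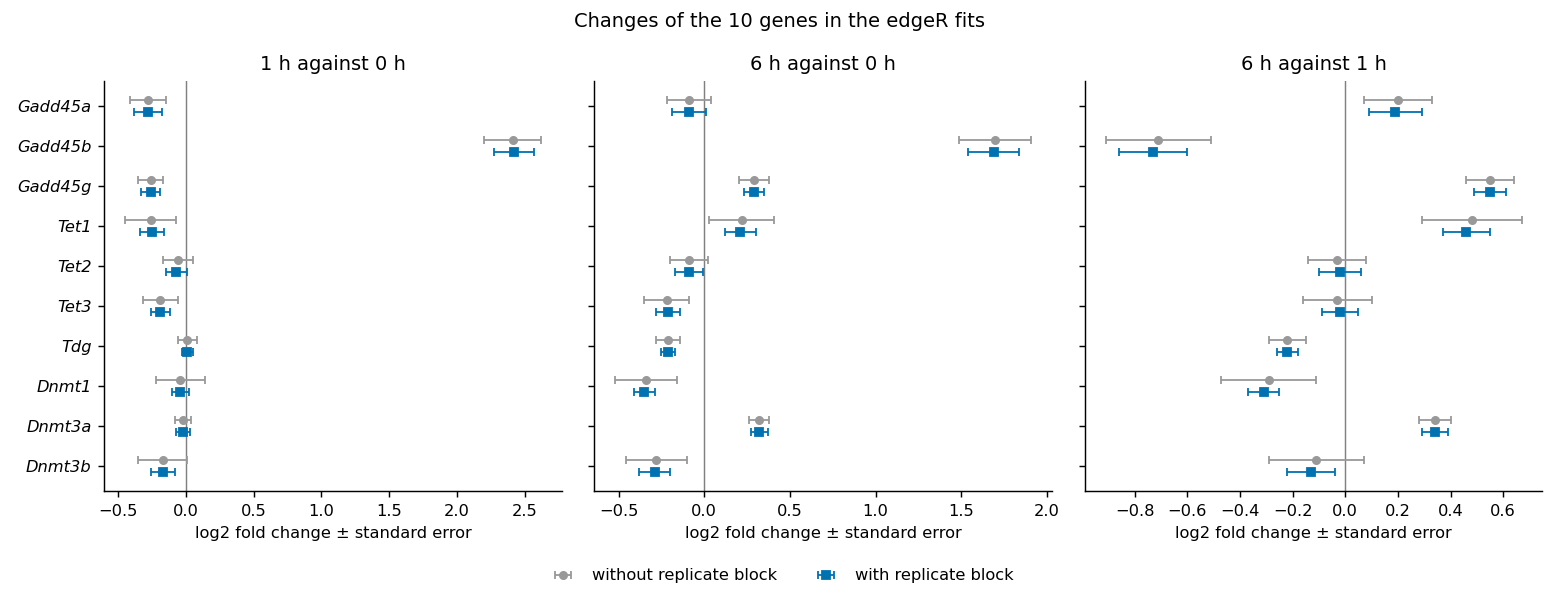
Log2 fold changes of the 10 genes (x axis, bars are standard errors of the edgeR fits) at 1 h against 0 h, 6 h against 0 h and 6 h against 1 h. Grey circles are the fit with time point alone and blue squares the fit with the replicate block. Estimates of both fits nearly coincide, and the errors of Dnmt1 shrink from 0.18 to 0.06 with the block at 6 h against 0 h, and those of Tet3 from 0.13 to 0.07.

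The partners of these genes were counted in lists that describe the rest of the pathway. In the list of active demethylation and base excision repair, 15 of 17 genes were tested and none was called at 1 h against 0 h with or without the block. With the block 4 were higher and 2 lower at 6 h against 0 h, where 34.9% of all genes were called (17.4% higher and 17.5% lower), and the median log2 fold change was 0.03. Neil1, a glycosylase that can act downstream of TET oxidation, was also called with time point alone, with 10.2 ± 0.240 CPM before induction and 15.3 ± 0.573 CPM after 6 h (SD, n = 3, log2 fold change 0.59, SE 0.09, edgeR adjusted p = 0.0234). Ogg1 (0.36, adjusted p = 0.000704), Nthl1 (0.30, 0.0326), both glycosylases for oxidised bases, and the cytidine deaminase gene Apobec3 (0.42, 0.00180) were higher with the block in edgeR. The uracil glycosylase gene Ung was lower (-0.59, adjusted p = 8.22e-05). Mbd4, which encodes the other thymine glycosylase, had a log2 fold change of 0.21 against 0 h (edgeR adjusted p = 0.0534 with the block) and was higher against 1 h (0.39, adjusted p = 0.00224), while the scaffold gene Xrcc1 was lower against 1 h (-0.37, adjusted p = 0.000129). Against 1 h, 5 genes of the list were higher and 3 lower with the block, where 18.0% and 17.5% of all genes were.

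Of the 14 genes for TET partners and 2-oxoglutarate supply, 11 were tested. The largest difference was in Oga, which encodes the enzyme that removes O-GlcNAc and thus opposes the TET partner OGT. It was at 246 ± 14.0 CPM at 0 h, 227 ± 26.6 CPM at 1 h and 129 ± 12.4 CPM at 6 h, and it fell by 0.94 on the log2 scale at 6 h against 0 h (SE 0.11, edgeR adjusted p = 0.00766 without the block). With the block 2 genes were higher and 3 lower in this comparison, against the same background of 34.9% called. Idh1 and Idh2, whose enzymes make 2-oxoglutarate, were higher (log2 fold changes 0.53 and 0.27, edgeR adjusted p = 1.55e-05 and 0.00137). Cxxc4, which encodes a CXXC partner of TET2, was lower (-0.49, adjusted p = 0.00132), as was Sin3a (-0.16, adjusted p = 0.0327). Only Vhl was called at 1 h against 0 h with the block (-0.30, edgeR adjusted p = 0.0124), where 3.51% of all genes were. At 6 h against 1 h 4 genes were higher, Vhl, Cxxc5, Ogt and Idh1 (18.0% of all genes were), and Oga was lower (17.5%).

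Partners of maintenance methylation were lower at 6 h with Dnmt1. All 13 were tested, and with the block 9 were lower and 1 was higher at 6 h against 0 h, in a background of 17.5% and 17.4% of all genes, with a median log2 fold change of -0.22. Without the block edgeR called none of the 13, and DESeq2 called 2 as lower. Cdca7l (-0.72, edgeR adjusted p = 2.13e-05) and Hells (-0.70, 7.68e-05) had the largest decreases, followed by the replication clamp gene Pcna (-0.43, 0.000172). Hells encodes a chromatin remodelling protein needed for methylation. Uhrf1, which brings DNMT1 to hemimethylated DNA, went from 276 ± 95.4 CPM to 235 ± 96.7 CPM (SD, n = 3; log2 fold change -0.26, edgeR adjusted p = 0.00546 with and 0.855 without the block). The imprint protection gene Zfp57 was higher (0.49, adjusted p = 0.000316). At 1 h against 0 h Cdca7 alone was called (-0.35, edgeR adjusted p = 0.00574 with the block), where 3.51% of all genes were. At 6 h against 1 h 8 were lower (17.5% of all genes were) and 2 higher (18.0%).

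The S phase and proliferation list moved with Dnmt1 as well. With the block 15 of its 16 genes were lower at 6 h against 0 h (17.5% of all genes were) and none was higher (17.4%), with a median of -0.34, and none was called at 1 h against 0 h. Ccne2 (-0.71, edgeR adjusted p = 4.32e-05), Mcm6 (-0.53, 0.000116), Cdt1 (-0.51, 0.000221) and Mcm5 (-0.45, 8.33e-05), which act at the start of DNA replication, had the largest decreases. Against 1 h 14 were lower, where 17.5% of all genes were, with E2f1 at -0.56 (edgeR adjusted p = 4.93e-05). Without the block edgeR called none of the 16 in the 3 comparisons, and DESeq2 called 2 as lower at 6 h against 0 h. Whether fewer cells in S phase had a part in the lower Dnmt1 was not tested.

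The partners of de novo methylation were 13 genes with 11 tested, and Dnmt3l, the catalytically inactive partner of the DNMT3 enzymes, was not tested because it had at most 5 counts in a library. With the block 2 of the 11 were lower at 1 h against 0 h, where 2.14% of all genes were. These were the H3K36 methyltransferase gene Setd2 (-0.28, edgeR adjusted p = 0.00947) and the H3K9 methyltransferase gene Ehmt1 (-0.22, 0.0215). At 6 h against 1 h 4 were higher with the block, where 18.0% of all genes were. They were Setd2 (0.29, edgeR adjusted p = 0.000753), Ehmt1 (0.21, 0.00354), Zfp445 (0.37, 0.00401) and Daxx (0.21, 0.00967). Both comparisons share the 1 h libraries, so the rise of Setd2 and Ehmt1 is not independent of their decrease. Setdb1 alone was called at 6 h against 0 h (-0.14, edgeR adjusted p = 0.0241), where 34.9% of all genes were. Of 10 methyl-CpG binding protein genes 9 were tested, with none called at 1 h. At 6 h against 0 h 2 were higher and 2 lower with the block, where 17.4% and 17.5% of all genes were. Mbd5 (-0.57, edgeR adjusted p = 0.000123) and Zbtb33 (-0.20, 0.0416) were lower, and Zbtb4 (0.31, 0.00526) and Mbd6 (0.26, 0.00195) higher.

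Among 18 genes for GADD45 partners and the p38 and JNK kinases, all tested, Map3k4, the kinase that GADD45 proteins activate, was at 59.9 ± 5.56 CPM at 0 h, 60.2 ± 6.13 CPM at 1 h and 62.4 ± 4.99 CPM at 6 h and was not called. At 1 h against 0 h the cell cycle inhibitor gene Cdkn1a was the only one called, where 3.51% of all genes were, and it was higher (0.30, edgeR adjusted p = 0.00249 with the block). At 6 h against 0 h the JNK genes Mapk8 (-0.33, adjusted p = 0.000245, edgeR with the block) and Mapk10 (-0.30, 0.00259) were lower and the p38 gene Mapk11 was higher (0.22, 0.0124). These were the only calls among the 18 genes, in a background of 34.9% of all genes called, so the list as a whole was not called more often. Against 1 h, 5 genes of this list were lower and none was higher with the block, in a background of 17.5% and 18.0% of all genes. In the list for the methionine cycle and folate metabolism, which provide S-adenosylmethionine as the methyl donor, 9 of 16 genes were lower (17.5% of all genes) and 2 higher (17.4%) at 6 h against 0 h with the block, with a median of -0.17. Mat2a, which encodes the S-adenosylmethionine synthetase of these cells, was at 444 ± 10.8 CPM at 0 h, 371 ± 14.4 CPM at 1 h and 315 ± 32.8 CPM at 6 h. It fell by 0.50 on the log2 scale at 6 h against 0 h (SE 0.09, edgeR adjusted p = 0.0311 without the block), and at 1 h against 0 h with the block (-0.26, adjusted p = 0.0193). Trdmt1 (-0.66), Shmt1 (-0.65) and Tyms (-0.53) were lower at 6 h against 0 h with the block (edgeR adjusted p up to 3.96e-05). The counts against 1 h were 10 lower (17.5% of all genes) and 2 higher (18.0%). Trdmt1 is related to the DNMT genes in sequence and encodes a tRNA methyltransferase.

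**Figure D4:**
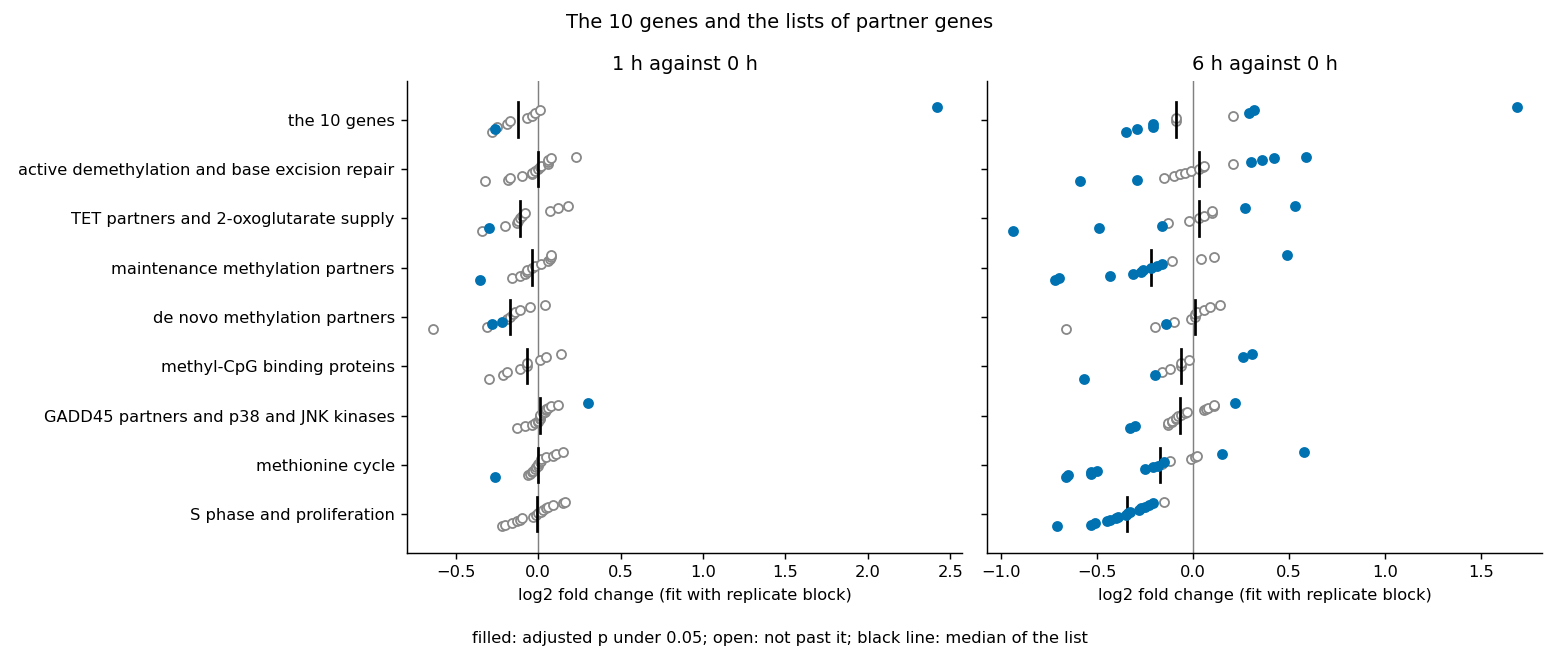
Log2 fold changes of single genes in the edgeR fit with the replicate block (x axis) for the 10 genes and the 8 lists of partner genes (rows), at 1 h against 0 h and 6 h against 0 h. Filled circles have an adjusted p under 0.05, open circles do not, and black lines are medians, which lie at -0.34 for the S phase list and -0.22 for the maintenance methylation list at 6 h.

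The genes whose time courses were most like those of the members were found by the Pearson correlation of log2 CPM over the 9 libraries among 13596 genes with at least 1 CPM on average. These correlations describe 9 libraries that share replicate numbers and a scaling step, and no test is attached to them. The order of the nearest genes rests in part on differences between replicate numbers: with the replicate means removed, r was still between 0.930 and 0.997 for the 30 genes named here, but only 3 of them stayed among the first 3 of their member, and the rank went down to 214 (Derl2 for Tet1). Gadd45b was most like Wdyhv1 (r = 0.962), the transcription factor gene Nfil3 (0.959) and Prickle1 (0.950). Gadd45g was most like 1110019D14Rik (0.971), Prkd2 (0.971) and Efna4 (0.966), and Gadd45a like Esco1 (0.955), Syne4 (0.945) and Hyls1 (0.941). Dnmt1 had its closest match in Atad2 (0.995), followed by Hells (0.989), the remodelling gene of the maintenance list, and Rad54l (0.987). Dnmt3b was most like Ncapg (0.987), Blm (0.984) and Srsf10 (0.983), and Dnmt3a like Atg2a (0.990), Ripor1 (0.984) and Pkd1 (0.974). For Tdg the closest were Dars (0.995), Srrt (0.993) and Txnrd1 (0.990). The nearest genes of Tet1 were Mrs2 (0.969), Derl2 (0.967) and Ccdc93 (0.961), those of Tet2 Cep85l (0.962), mt-Nd4l (0.948) and Neo1 (0.948), and those of Tet3 Pogk (0.973), Zc3h11a (0.966) and Nin (0.958).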

How the data were processed

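The authors extracted total RNA, made stranded mRNA libraries, sequenced paired-end reads, assessed them with FastQC and aligned them to mm10 (GRCm38) with STAR 2.5.3a, and they used DESeq2 1.22.1 for their own tests. They deposited raw counts of reads per Ensembl gene, which are not normalised. The strand setting of the counting is not given in the sources used here. Symbols and positions came from GENCODE M21, which held 48144 of the 48526 identifiers, and promoters from RefSeq GRCm38.p6.

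The edgeR 4.0.16 package in R 4.3.3 was applied to these counts (filterByExpr with a minimum count of 10 and a minimum total of 15, TMM factors of 0.972 to 1.02, glmQLFit and glmQLFTest). The main fit held all 9 libraries and no factor besides time point, and p-values were adjusted over 18858 genes by the Benjamini-Hochberg method, with a threshold of 0.05. Log2 CPM used a prior count of 2. The biological coefficient of variation was 0.277 without the replicate block and 0.0627 with it. Replicate numbers come from the labels. After subtraction of the time point means, libraries with the same number correlated at 0.733 to 0.800 in 9 pairs, so the numbers pair the samples. Those with other numbers correlated at -0.462 to -0.314 in 18 pairs. Their negative sign follows from the subtraction once the same-number values are positive, and it adds nothing to the pairing. What same-numbered libraries share is not stated.

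The alternatives were DESeq2 1.42.0, the block in edgeR and DESeq2, RLE scaling, library totals, no filter, a mean of at least 1 CPM, the 6 libraries of a comparison alone, an adjusted p under 0.01, the longest transcript as length, and leaving out each library. The block with RLE scaling, with library totals and with each library left out was chosen after seeing the data. The members, the 8 pathway lists and the marker lists were chosen with earlier results of these data known. Named were all 10 members, from each list and comparison up to 4 genes with the largest change among those called without the block and up to 4 among those called only with it, the 3 genes most like each member, and Uhrf1, Mbd4, Map3k4 and Dnmt3l. Some genes that this rule admits are not reported here. The fits were also run on simulated counts, which carried the replicate differences of these data and the same spread for every gene. Such counts share the assumption of the block, so they cannot show that its calls hold here, and nothing is read from them. For tables and plots, Python 3.11.15 was used with matplotlib 3.10.9, numpy 2.4.6 and pandas 2.3.3.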

Additional observations from a re-analysis of the deposited data

How the results depend on the processing

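The pairing decided most calls. With the replicate block the members called went from 1 to 2 at 1 h against 0 h, from 2 to 7 at 6 h against 0 h and from 2 to 6 at 6 h against 1 h, with the same counts from the block in DESeq2. Over the lists of partner genes the block raised the calls from 0 to 6, from 4 to 55 and from 4 to 63, and DESeq2 without the block gave 1, 14 and 13. Over all 18858 tested genes the block in edgeR raised the calls from 8 to 661, from 456 to 6581 and from 404 to 6710. DESeq2 without the block called 4 members at 6 h against 1 h. Without the filter on low counts 1 member was called in each comparison with 6 h. With only the 6 libraries compared, 1 was called at 6 h against 0 h and 0 at 6 h against 1 h. An adjusted p under 0.01 left 0, 1 and 0 members in the 3 comparisons. Leaving out each library gave 0 to 1, 0 to 2 and 0 to 1 members without the block, and 1 to 2, 5 to 8 and 6 to 8 with it. The block with RLE scaling called 1 member at 1 h against 0 h, since Gadd45g was then not called. The log2 fold change of Gadd45b at 1 h against 0 h was between 2.34 and 2.52 over the alternatives without the block or with all libraries, and between 2.25 and 2.54 with the block and a library left out.

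Directions were reversed only in values near 0 that were not called. With library totals these were Tdg at 1 h against 0 h (-0.00) and Tet2 and Tet3 at 6 h against 1 h (0.01 each). The others appeared when a library was left out, given first for the fit without the block. At 1 h against 0 h Tdg was then at -0.03 without 0 h replicate 2 and -0.01 without 1 h replicate 3, and the log2 fold changes ranged from -0.16 to 0.06 for Tet2 (above 0 without 1 h replicate 3), from -0.15 to 0.05 for Dnmt1 (0.03 without 0 h replicate 1, 0.05 without 1 h replicate 2) and from -0.04 to 0.01 for Dnmt3a (above 0 without replicate 3 of either time point). At 6 h against 1 h they ranged from -0.15 to 0.08 for Tet2 (0.00 and 0.08 when replicate 1 or 2 of 1 h was left out, and 0.01 when replicate 1 of 6 h was), from -0.11 to 0.10 for Tet3 (above 0 without 1 h replicate 1 or 6 h replicate 2) and from -0.20 to 0.04 for Dnmt3b (above 0 without 6 h replicate 2). With the block and a library left out, values of the opposite sign were at most 0.09 and not called: they occurred for Tet2 in the 3 comparisons (ranges -0.14 to 0.09, -0.15 to 0.01 and -0.17 to 0.06), for Dnmt1 (-0.10 to 0.01) and Dnmt3a (-0.05 to 0.04) at 1 h against 0 h, and for Tet3 at 6 h against 1 h (-0.13 to 0.04). Of the other results for single members, 465 kept their direction and their side of the threshold, 35 lost a call and 23 gained one. Only 1, 2 and 2 members were called in the main fit of the 3 comparisons. The 35 losses therefore fall on those few calls, and most of the 465 were results that stayed uncalled. With the longest transcript 25 of 30 levels per kb moved by more than the SD, since the divisor differs. The cause of the other changes was not tested. Gadd45a, Gadd45b at 0 h and Dnmt3b had the fewest counts, and differences of their size may not be detectable at this depth.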
